A study of Homo sapiens with 6 samples.

Results

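The collagen genes were taken here as the protein-coding genes whose symbol is made of COL, a number, A and a number, which encode the alpha chains of the collagens. The annotation placed 41 such genes among the 61015 genes with a transcript on file, of which 19955 are protein-coding. The rule used no measured value, and it left out 1 autosomal collagen gene and the chains on the X chromosome.

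RNA was sequenced from cells of the human triple-negative breast cancer line MDA-MB-231 that were resistant to paclitaxel (PTX), a drug that stabilises microtubules. Per the study's methods, the resistant cells were sorted by aldehyde dehydrogenase (ALDH) activity, a marker of breast cancer stem cells (BCSC), into BCSC (ALDH+) and non-BCSC (ALDH−). Each group held 3 libraries, both shared the PTX resistance, no sensitive cells were compared, and since all 6 carried 1 cell type label, groups were taken from the sample titles. Nothing states that the libraries came from separate cultures, so p-values measure only the spread between these libraries, which may be technical.

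Collagens are built from 3 alpha chains wound into a triple helix, which needs a glycine at the head of each Gly-X-Y triplet. The fibrillar collagens form banded fibres, type IV forms the sheets of basement membranes, type VI forms beaded filaments around cells, and the FACITs (fibril-associated collagens with interrupted triple helices) sit on the surface of fibres. In breast tumours most fibrillar collagen is known to be made by fibroblasts of the stroma, while carcinoma cells make their own set of chains and meet the rest through integrins and discoidin domain receptors.

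The glycine repeat is shown in the coding sequence of 3 members from different classes, because the length of its unbroken run differs between the classes. Each line gives the first 18 codons of that run, 5′ to 3′, from the canonical transcript of the GENCODE annotation on GRCh37. Capitals mark the glycine codon (GGN) at the head of each triplet, and no other glycine codon.
COL11A1: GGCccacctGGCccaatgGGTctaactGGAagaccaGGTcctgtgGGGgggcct
COL4A1: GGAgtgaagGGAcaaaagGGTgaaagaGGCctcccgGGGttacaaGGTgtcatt
COL12A1: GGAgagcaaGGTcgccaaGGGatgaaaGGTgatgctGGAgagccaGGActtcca

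In COL11A1, a fibrillar chain, the run held 338 triplets without a break and began at codon 529 of 1806. In 9 of the 11 fibrillar chains the run held 337 to 343 triplets, and in COL24A1 and COL27A1 it held 216 and 217. The longest run held 87 triplets in COL6A2, 40 in COL4A1 and 32 in COL12A1, a FACIT in which runs of at least 6 triplets made up 8.2% of the codons.

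Library totals ran from 9898588 to 21215352 counts, and each BCSC library was deeper than each non-BCSC library. The markers of the line were present, with VIM, the mesenchymal filament vimentin, at 2303 to 3707 CPM (counts scaled by TMM to a common library size), and EPCAM, an epithelial adhesion molecule, at 0 to 1.81 CPM. The 391 olfactory receptor genes, which should be silent in these cells, carried 1.03, 1.10 and 3.19 counts per kb in BCSC against 8.33, 10.1 and 15.3 in non-BCSC. Those values are set beside sparse members as a ratio of counts per kb. That ratio divides by the mean length of a gene's annotated transcripts, some of them much shorter than the canonical one. Where the canonical transcript of the gene is longer than that mean, its length would give a lower ratio. The part of this background in a result was not tested unless a value is given. In bulk RNA, fewer cells that express a gene and less RNA per cell cannot be told apart.

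Of the 41 collagen genes, 30 passed edgeR's filter on low counts and 11 did not. A gene was called changed at a Benjamini-Hochberg adjusted p under 0.05 over all 20442 genes tested together with a fold change above 2. In edgeR, 4 collagen genes rose in BCSC relative to non-BCSC (COL6A1, COL6A2, COL13A1 and COL27A1), 7 fell (COL11A1, COL6A5, COL6A6, COL9A1, COL19A1, COL25A1 and COL28A1) and 19 were not called. Over all genes tested, 8.85% were called higher and 11.3% lower. DESeq2 called 4 collagen genes higher and 10 lower, with COL3A1, COL5A2 and COL10A1 added to those that fell, where 6.06% of all genes with an adjusted p were called higher and 15.2% lower. By adjusted p alone the counts were 6 and 9, against a background of 15.3% and 14.6%. All 3 BCSC libraries lay above all 3 non-BCSC libraries for 7 members and below them for 13, where the background was 24.2% and 27.9%. The median log2 fold change was −0.62 over the tested members and −0.05 over all genes tested. A gene can pass the filter through 1 group alone, so these counts and medians are descriptions.

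The calls are given by abundance beside those of all genes at the same level. The 19 members with a mean of at least 50 counts per library were all tested, with 4 called higher, 2 lower and a median log2 fold change of 0.03. Of all 12576 tested genes at that level, 13.7% were called higher and 6.45% lower, with a median of 0.22. The 22 members under that mean included 11 that were tested, with 0 called higher in edgeR, 5 lower and a median of −2.58, and DESeq2 also called 0 higher, as did edgeR at an unadjusted p under 0.05. Of all 7866 tested genes under that mean, 1.03% were called higher and 19.0% lower, with a median of −1.48. The direction of the sparse members was thus also that of low genes at large, and a sparse gene can pass the filter through non-BCSC alone. The number called lower rested in part on single libraries, since it was 3 without BCSC 1, 2 without BCSC 2 and 2 without non-BCSC 3. With the olfactory background subtracted it was 2 of 24 tested, while over all genes 1789 were called higher and 1081 lower of 16514, beside 1810 and 2307 of 20442 as reported.

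**Figure D1:**
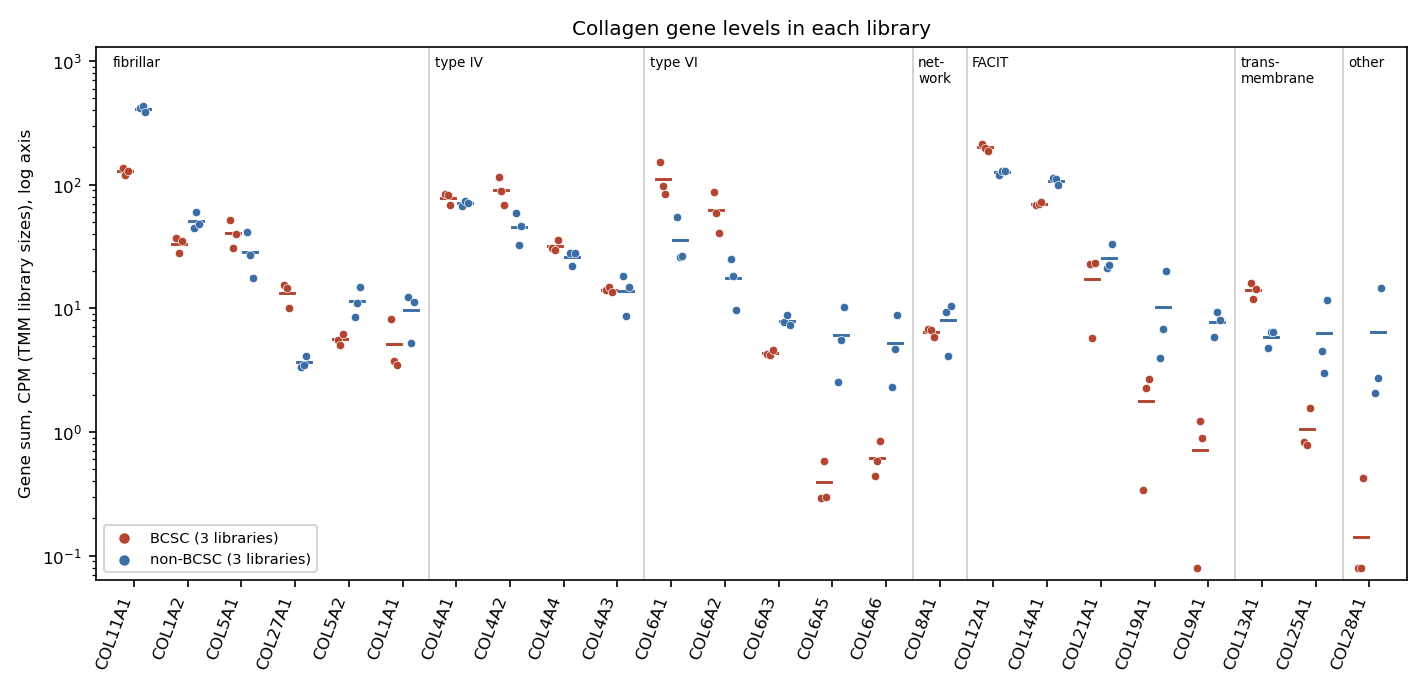
Level of each collagen gene with a mean of at least 50 counts or a call, as CPM per library on a log axis, grouped by class. Points are libraries, short lines are means of 3 libraries, and libraries at 0 CPM are drawn at the lower edge. COL11A1 stands at 384 to 435 CPM in non-BCSC and 120 to 137 CPM in BCSC, while COL6A1, COL6A2, COL13A1 and COL27A1 are higher in every BCSC library.

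Correction of the counts for GC content and transcript length changed which members were called. Under it 0 members were called higher in edgeR (3 at an unadjusted p under 0.05, and 4 by DESeq2 without the correction) and 8 lower, with COL1A1 and COL5A2 added and COL19A1 lost, while 7.60% of all genes were called higher and 9.74% lower. The log2 fold change as reported had a rank correlation with transcript GC content of 0.58 over the 30 tested members and 0.55 over all genes tested, as a description over genes that share libraries and depth. The members called higher had a mean GC content of 57.1% to 64.9%, and COL11A1 and COL12A1 had 46.0% and 45.7%. The joint correction for GC content and length is called GC correction below, and it does not separate the part of the one from that of the other. Corrected values are given with the calls below, and the part of base composition or length in a fold change was not tested beyond them.

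**Figure D2:**
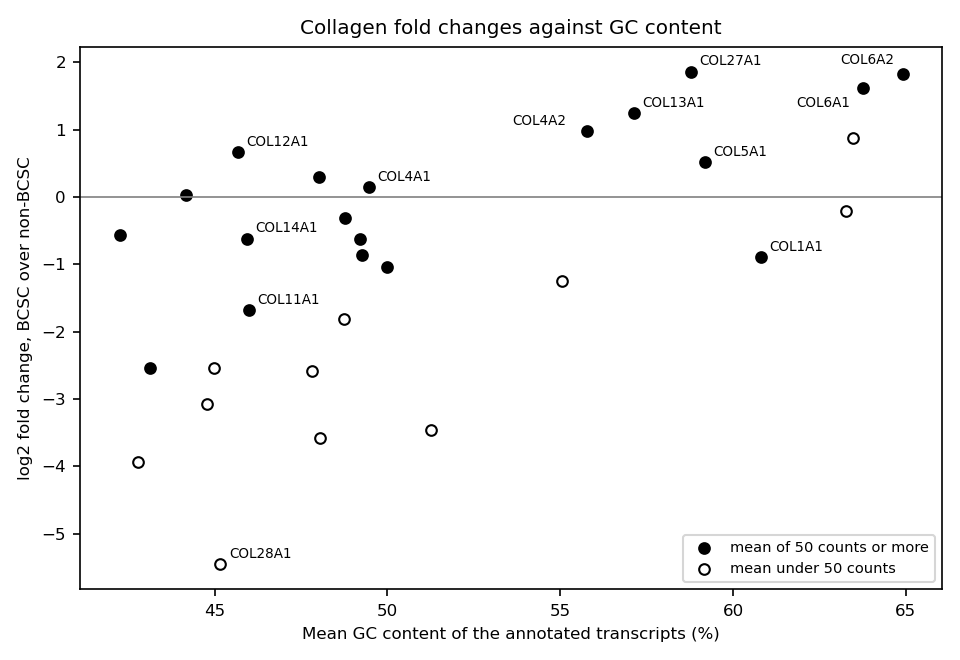
Log2 fold change of the 30 tested collagen genes (BCSC over non-BCSC) against the mean GC content of their annotated transcripts in percent. Filled points have a mean of at least 50 counts. The 4 genes called higher lie at 57.1% to 64.9% GC, while COL12A1 lies at 45.7% with a log2 fold change of 0.67.

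Among the fibrillar chains, which assemble into the load-bearing fibres of the matrix, 1 fell (COL11A1), 1 rose (COL27A1) and 6 of the 8 tested were not called. COL11A1 encodes the alpha-1 chain of type XI collagen, a minor fibrillar chain that sets the width of fibres in cartilage. It had the highest mean count of all collagen genes over the 6 libraries, with 2802, 1856 and 2144 in BCSC against 5113, 4964 and 4035 in non-BCSC. At 137, 120 and 129 CPM in BCSC against 419, 435 and 384 CPM in non-BCSC, every BCSC library lay below every non-BCSC library, although all 3 BCSC libraries were deeper. The mean fell from 413 ± 26.1 to 129 ± 8.41 CPM (SD, n = 3), a log2 fold change of −1.68 ± 0.10 (SE, adjusted p = 3.33e-05 in edgeR). The call held without each library in turn, and the value was −1.47 after GC correction (adjusted p = 0.000436 in edgeR).

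COL27A1 encodes type XXVII collagen, a fibrillar chain with a shorter helix that is known from cartilage. Its counts were 314, 224 and 167 in BCSC against 41, 40 and 43 in non-BCSC. The groups did not overlap, with 15.4, 14.5 and 10.02 CPM in BCSC against 3.36, 3.51 and 4.09 CPM in non-BCSC, where its counts per kb were 1.25 times those of the olfactory genes. It rose by a log2 fold change of 1.86 ± 0.35 (SE, adjusted p = 0.00576 in edgeR), and 0.98 after GC correction (adjusted p = 0.043 in edgeR), which is under the fold required.

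The chains of type I collagen, the main collagen of bone, skin and tumour stroma, were not called. COL1A2 had 36.8, 27.8 and 35.05 CPM in BCSC against 44.4, 60.3 and 48.4 CPM in non-BCSC, so that all BCSC libraries were lower, with a log2 fold change of −0.62 ± 0.19 (SE, adjusted p = 0.0341 in edgeR). COL1A1 had 8.26, 3.76 and 3.48 CPM in BCSC against 12.4, 5.26 and 11.3 CPM in non-BCSC, and the groups overlapped. Its log2 fold change was −0.90 ± 0.49 (SE, adjusted p = 0.192 in edgeR) and −2.10 after GC correction (adjusted p = 0.00446 in edgeR), which would be a call. Type I collagen is normally built from COL1A1 chains in excess over COL1A2, but here COL1A2 exceeded COL1A1 in every library, by 5.20, 8.62 and 11.7 times per kb in BCSC against 4.19, 13.4 and 4.98 times in non-BCSC, and the groups overlapped.

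Type V collagen, which starts the assembly of type I fibres, was carried mainly by COL5A1. COL5A1 had 51.4, 30.9 and 40.2 CPM in BCSC against 41.1, 27.0 and 17.6 CPM in non-BCSC, which overlapped (log2 fold change 0.51 ± 0.31 SE, adjusted p = 0.228 in edgeR), and the sign turned after GC correction (−0.35). COL5A2 had 5.57, 5.05 and 6.18 CPM in BCSC against 8.52, 11.05 and 14.9 CPM in non-BCSC. All BCSC libraries of COL5A2 were lower, and at −1.04 ± 0.35 (SE) the edgeR adjusted p was 0.052, and DESeq2 gave 0.0233. Of the remaining fibrillar chains, COL24A1 had a mean of 48.7 counts and COL3A1, the chain of type III collagen in elastic tissues, 34.7, and neither was called in edgeR. COL3A1 had a log2 fold change of −2.54 (adjusted p = 0.0698 in edgeR), with all BCSC libraries lower, and DESeq2 called it lower (−2.61, adjusted p = 0.0221). COL11A2, COL5A3 and COL2A1, the main collagen of cartilage, were not tested, at means of 6.67, 2.5 and 1.83 counts. COL11A2, a partner chain of COL11A1, had 6, 15 and 18 counts in BCSC against 0, 1 and 0 in non-BCSC, the opposite order to COL11A1.

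**Figure D3:**
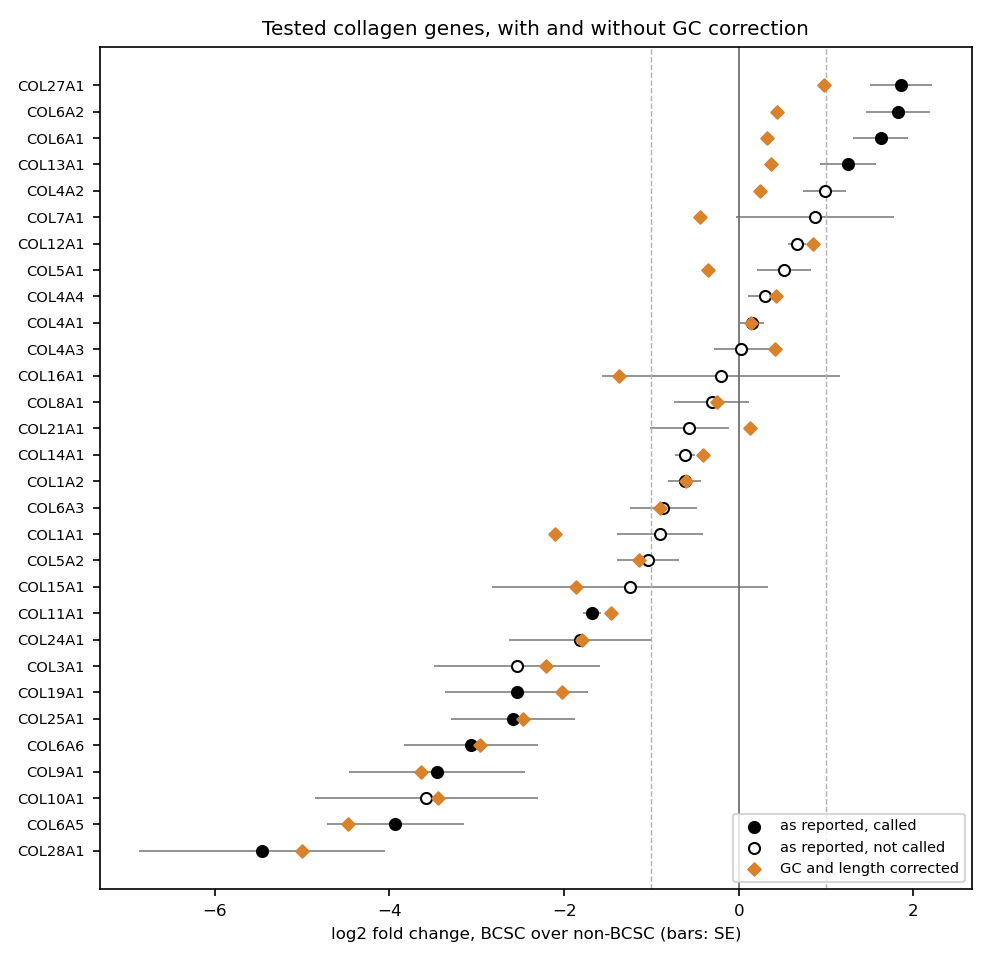
Log2 fold change (BCSC over non-BCSC) of the 30 tested collagen genes, with bars for the SE, filled circles for called genes and orange diamonds for the value after correction for GC content and length. Dashed lines mark a fold of 2. COL6A1 moves from 1.62 to 0.32 and COL6A2 from 1.82 to 0.44, while COL11A1 moves from −1.68 to −1.47.

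Promoters are shown for COL11A1, COL27A1 and COL6A2, called members of 2 directions, and for the stretch that COL4A1 and COL4A2 share between their divergent starts, a pair whose chains join in 1 helix. They were taken from RefSeq on GRCh38.p14 and cover 250 bases before each start, 5′ to 3′ on the strand of the gene, at chr1:103108523-103108772 (−), chr9:114155287-114155536 (+) and chr21:46097862-46098111 (+), and the 126 bases of the shared stretch at chr13:110307158-110307283 (+). Capitals mark the GC box, searched as GGGCGG on either strand. They also mark the box of the letters CCAAT. The TATA box, searched as TATAAA, is marked in the same way, and the matches do not overlap each other.
COL11A1: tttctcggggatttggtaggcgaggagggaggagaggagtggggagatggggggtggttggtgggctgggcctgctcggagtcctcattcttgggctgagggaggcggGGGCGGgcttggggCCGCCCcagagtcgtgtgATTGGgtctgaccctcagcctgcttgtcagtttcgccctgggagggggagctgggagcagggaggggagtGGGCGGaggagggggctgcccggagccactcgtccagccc
COL27A1: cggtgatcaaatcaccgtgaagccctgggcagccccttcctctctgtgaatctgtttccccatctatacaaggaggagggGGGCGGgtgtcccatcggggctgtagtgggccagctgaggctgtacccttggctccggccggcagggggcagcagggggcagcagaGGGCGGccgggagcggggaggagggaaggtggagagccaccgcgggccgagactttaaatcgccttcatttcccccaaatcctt
COL6A2: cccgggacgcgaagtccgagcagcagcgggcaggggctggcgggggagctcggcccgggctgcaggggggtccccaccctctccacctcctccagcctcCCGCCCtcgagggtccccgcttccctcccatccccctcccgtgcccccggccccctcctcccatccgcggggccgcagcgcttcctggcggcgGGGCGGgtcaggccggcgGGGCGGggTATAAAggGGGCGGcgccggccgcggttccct
COL4A1-COL4A2: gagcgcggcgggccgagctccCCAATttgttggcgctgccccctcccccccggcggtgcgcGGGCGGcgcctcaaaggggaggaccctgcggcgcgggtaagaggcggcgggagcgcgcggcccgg

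The COL11A1 window held 3 GC boxes and 1 CCAAT box, the COL27A1 window 2 GC boxes, and the COL6A2 window 4 GC boxes and 1 TATA box. The shared stretch of COL4A1 and COL4A2 held 1 GC box and 1 CCAAT box and had a GC content of 80.2%. Of the 35116 promoters of the same length, 42.64% held a GC box, 32.01% a CCAAT box and 10.72% a TATA box, against 18, 6 and 4 of the 29 collagen promoters in the table. These matches are a description of letters, not of binding.

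The type IV chains form the network of the basement membrane, and none of the 4 was called. COL4A1 had 84.1, 82.4 and 68.1 CPM in BCSC against 66.9, 73.8 and 70.9 CPM in non-BCSC, which overlapped, with a log2 fold change of 0.15 ± 0.13 (SE, adjusted p = 0.425 in edgeR). COL4A2 had 115, 89.4 and 67.9 CPM in BCSC against 58.8, 32.7 and 46.0 CPM in non-BCSC, and every BCSC library was higher. Its log2 fold change of 0.98 ± 0.24 (SE, adjusted p = 0.0159 in edgeR) stopped just short of the fold required, and it passed when BCSC 2, BCSC 3 or non-BCSC 1 was left out (1.02, 1.15 and 1.26).

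COL4A1 and COL4A2 join at 2 to 1 in the ordinary type IV helix, so their ratio was taken within each library. Per kb, COL4A1 over COL4A2 was 0.723, 0.908 and 0.989 in BCSC against 1.12, 2.22 and 1.52 in non-BCSC. The ratio was below 1 in all BCSC libraries and above 1 in all non-BCSC libraries. The genes also overlap on opposite strands, and whether the authors' counting used strand is not given in the sources used here, so reads of the overlap cannot be assigned with certainty. COL4A2 had the higher GC content (55.8% against 49.5% for COL4A1), and after GC correction the log2 fold changes were 0.24 and 0.14.

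COL4A3 and COL4A4 encode the chains known from the kidney filter, and their starts lie 418 bases apart on opposite strands. COL4A4 had 30.6, 29.6 and 35.6 CPM in BCSC against 27.9, 21.9 and 28.1 CPM in non-BCSC, without overlap but not called (log2 fold change 0.30 ± 0.20 SE, adjusted p = 0.273 in edgeR). COL4A3 had 14.1, 14.9 and 13.4 CPM in BCSC against 18.1, 8.68 and 14.8 CPM in non-BCSC, which overlapped. Its log2 fold change of 0.03 ± 0.31 (SE, adjusted p = 0.953 in edgeR) changed sign with the scaling, and the locus overlaps the antisense transcript MFF-DT, which had 291 counts in BCSC against 350 in non-BCSC.

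Type VI collagen forms beaded filaments that link cells to the surrounding fibres, and its chains split, with 2 that rose, 2 that fell and 1 not called. COL6A1, the alpha-1 chain, had 3099, 1498 and 1390 counts in BCSC against 671, 297 and 280 in non-BCSC. In CPM these were 152, 97.0 and 83.4 against 55.0, 26.04 and 26.7, so that the lowest BCSC library was above the highest non-BCSC library. The log2 fold change was 1.62 ± 0.32 (SE, adjusted p = 0.00646 in edgeR) and fell to 0.32 after GC correction (adjusted p = 0.177 in edgeR). COL6A2, the alpha-2 chain, followed with 87.9, 59.05 and 40.8 CPM in BCSC against 25.1, 18.2 and 9.61 CPM in non-BCSC, again without overlap. Its log2 fold change was 1.82 ± 0.37 (SE, adjusted p = 0.00716 in edgeR) and 0.44 after GC correction (adjusted p = 0.222 in edgeR). Without each library in turn both kept their calls. With the olfactory background subtracted the log2 fold changes were 1.44 and 1.74 and both were still called.

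COL6A3, the large chain that completes the classical type VI filament, did not rise with them. It had 4.30, 4.21 and 4.56 CPM in BCSC against 7.70, 8.77 and 7.33 CPM in non-BCSC, all BCSC libraries lower, with a log2 fold change of −0.86 ± 0.38 (SE, adjusted p = 0.11 in edgeR). Per kb in BCSC, the mean level was 26.3 CPM for COL6A1, 18.2 CPM for COL6A2 and 0.414 CPM for COL6A3. In non-BCSC the same levels were 8.54, 5.13 and 0.753 CPM per kb. COL6A1 over COL6A2 per kb was 1.41, 1.35 and 1.68 in BCSC against 1.79, 1.17 and 2.27 in non-BCSC, which overlapped.

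COL6A5 and COL6A6, chains that can stand in for COL6A3 in some tissues, were at very low counts and fell. COL6A5 had 6, 9 and 5 counts in BCSC against 31, 63 and 107 in non-BCSC, without overlap (log2 fold change −3.94 ± 0.79 SE, adjusted p = 0.007 in edgeR). Its counts per kb were 0.524 times the olfactory level in BCSC against 0.83 times in non-BCSC, so it did not stand above that level in either group. The call for COL6A5 held without each library in turn and after GC correction (−4.48, adjusted p = 0.00317 in edgeR). COL6A6 had 9, 9 and 14 counts in BCSC against 28, 53 and 93 in non-BCSC, at 1.31 and 1.12 times the olfactory level. The log2 fold change of COL6A6 was −3.07 ± 0.76 (SE, adjusted p = 0.0163 in edgeR), and −2.96 after GC correction (adjusted p = 0.013 in edgeR), and the call was lost without BCSC 1, BCSC 2 or non-BCSC 3. Both were filtered out once the background was subtracted.

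The FACIT chains decorate fibres and bridge them to other matrix, and 2 of the 6 tested fell, both at low counts. COL12A1, which encodes type XII collagen on type I fibres, was the most abundant collagen gene in BCSC by counts, with 4400, 3045 and 3128, against 1459, 1464 and 1360 in non-BCSC. In CPM these were 215, 197 and 188 against 119, 128 and 129, and the groups did not overlap. The difference, a log2 fold change of 0.67 ± 0.10 (SE, adjusted p = 0.00236 in edgeR), was under the fold required for a call, and it was 0.85 after GC correction (adjusted p = 0.00214 in edgeR). By counts, COL11A1 led in every non-BCSC library and COL12A1, the longer transcript, in every BCSC library. Per kb of the canonical transcript COL12A1 led in BCSC 2 alone, since COL11A1 had 18.7, 16.4 and 17.6 CPM per kb in BCSC and COL12A1 18.3, 16.8 and 16.01. COL6A1 lay above both in BCSC at 36.0, 23.1 and 19.9 CPM per kb. In non-BCSC COL11A1 led per kb as well, at 57.3, 59.5 and 52.5, beside 10.2, 10.9 and 11.04 for COL12A1. The canonical transcript of COL12A1, COL12A1-201 (11725 nt), had 0 counts in BCSC 2, BCSC 3 and non-BCSC 3. There COL12A1-207 (9637 nt) led, and its shorter length would raise the COL12A1 values per kb. Of the COL11A1 counts, COL11A1-212 (3151 nt) carried 34.3%, 34.8% and 31.0% in non-BCSC and 10.5%, 0% and 19.2% in BCSC. Its shorter length would raise the COL11A1 values per kb as well.

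COL14A1, which encodes type XIV collagen, a close relative of type XII that regulates fibre growth, had 68.1, 70.3 and 72.0 CPM in BCSC against 113, 111 and 99.3 CPM in non-BCSC. All BCSC libraries were lower, with a log2 fold change of −0.62 ± 0.12 (SE, adjusted p = 0.00538 in edgeR), again short of the fold required. COL21A1 had 22.6, 5.76 and 23.3 CPM in BCSC against 21.3, 22.3 and 33.1 CPM in non-BCSC. BCSC 2 stood apart at 89 counts, the groups overlapped, and the log2 fold change was −0.57 ± 0.45 (SE, adjusted p = 0.366 in edgeR), with the sign turned by GC correction (0.13).

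COL19A1, a FACIT known from muscle and brain, had 7, 35 and 45 counts in BCSC against 48, 77 and 212 in non-BCSC. The groups did not overlap, and non-BCSC 3 was the highest at 20.2 CPM. The log2 fold change was −2.54 ± 0.82 (SE, adjusted p = 0.042 in edgeR). The call was lost after GC correction (−2.02, adjusted p = 0.0581 in edgeR) and without BCSC 1, BCSC 2, non-BCSC 2 or non-BCSC 3, and its counts per kb were 7.03 and 4.29 times the olfactory level in BCSC and non-BCSC. These ratios use the mean transcript length, while most counts lay on COL19A1-205 (8739 nt), whose length would lower them. COL19A1 lies opposite LMBRD1, which had 1296 counts in BCSC against 1602 in non-BCSC, and how reads of the overlap were assigned is not given in the sources used here. COL9A1, a chain of the type IX collagen that coats cartilage fibres, had 0, 19 and 15 counts in BCSC against 72, 106 and 85 in non-BCSC (log2 fold change −3.46 ± 1.01 SE, adjusted p = 0.0297 in edgeR). The value was −3.64 after GC correction (adjusted p = 0.0208 in edgeR), the call was lost without BCSC 2 or any 1 of the non-BCSC libraries, and the level was 2.75 and 3.36 times the olfactory level. The partner chains COL9A2 and COL9A3 were not tested, at means of 3.33 and 8.50 counts. COL16A1 was tested and not called at a mean of 9 counts, and COL22A1 and COL20A1 were not tested, at 13.8 and 1.67 counts. COL22A1 had 0 counts in all 3 BCSC libraries and 34, 0 and 49 in non-BCSC.

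The transmembrane collagens are held in the cell membrane and shed from it. COL13A1, which encodes the type XIII chain found at cell adhesions, rose as a gene sum, with 325, 184 and 239 counts in BCSC against 58, 74 and 68 in non-BCSC. At 15.9, 11.9 and 14.3 CPM against 4.75, 6.49 and 6.47 CPM, every BCSC library was higher. The log2 fold change was 1.25 ± 0.32 (SE, adjusted p = 0.0175 in edgeR), with the call lost without BCSC 1 (adjusted p = 0.0755 in edgeR) and after GC correction (0.37, adjusted p = 0.417 in edgeR). Of the COL13A1 counts, the protein-coding transcript COL13A1-215 carried 58, 2 and 0 in BCSC and 0 in each non-BCSC library. The rest lay on transcripts annotated as targets of decay, with a retained intron, or without a defined coding sequence. Such transcripts carried counts of other called members as well. COL6A5-201, a target of decay, had 31, 63 and 107 in non-BCSC, all the COL6A5 counts there. In non-BCSC, COL9A1-213, with a retained intron, had 24, 60 and 23, and COL28A1-202, a target of decay, had 19, 17 and 45. COL25A1, a type XXV chain known from neurons, fell, with 17, 12 and 26 counts in BCSC against 55, 34 and 122 in non-BCSC (log2 fold change −2.58 ± 0.71 SE, adjusted p = 0.0235 in edgeR). It was −2.47 after GC correction (adjusted p = 0.0199 in edgeR). At 3.10 and 1.87 times the olfactory level, its call was lost without BCSC 1, BCSC 2 or non-BCSC 3. COL23A1 had 16 counts in BCSC 3 and 0 in the other libraries.

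The short chain, anchoring, multiplexin and remaining classes were sparse. COL8A1, which forms hexagonal networks under endothelium, had 6.795, 6.67 and 5.82 CPM in BCSC against 9.42, 4.12 and 10.4 CPM in non-BCSC, with overlap and a log2 fold change of −0.31 ± 0.43 (SE, adjusted p = 0.611 in edgeR). COL10A1, the collagen of hypertrophic cartilage, and COL7A1, the anchoring fibril of skin, were tested and not called in edgeR at means of 15.8 and 35.5 counts. COL10A1 had a log2 fold change of −3.58 (adjusted p = 0.0595 in edgeR), with all BCSC libraries lower, and DESeq2 called it lower (−3.70, adjusted p = 0.0119). COL15A1, a multiplexin of basement membranes, was tested and not called at a mean of 12.0 counts, while COL18A1, the source of endostatin, was not tested at 9.67 and COL8A2 not at 4.33. COL28A1, a beaded chain of nerve sheaths, had 0, 0 and 7 counts in BCSC against 25, 31 and 152 in non-BCSC, without overlap. Its log2 fold change of −5.46 ± 1.41 (SE, adjusted p = 0.0185 in edgeR) rested on few counts, at 0.754 times the olfactory level in BCSC against 3.53 times in non-BCSC. It was −5.00 after GC correction (adjusted p = 0.017 in edgeR), and the call was lost without BCSC 1, BCSC 2 or non-BCSC 3. COL26A1 had 0 counts in all 6 libraries, which allows up to 3 counts in each, or 0.141 to 0.303 CPM of the library total, for counting error only.

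The total over the 41 members differed less than its make-up. Summed collagen CPM was 1083, 882 and 857 in BCSC against 1097, 1050 and 1073 in non-BCSC. These overlapped between BCSC 1 and the non-BCSC libraries, with means of 941 ± 123 and 1073 ± 23.5 (SD, n = 3). Without COL11A1 the order turned, with 946, 762 and 729 CPM in BCSC against 678, 614 and 689 CPM in non-BCSC, all BCSC libraries higher. COL11A1 took 12.7%, 13.6% and 15.0% of the sum in BCSC against 38.2%, 41.5% and 35.8% in non-BCSC. COL12A1 took 21.4% ± 1.32 in BCSC against 11.7% ± 0.727 in non-BCSC (SD, n = 3). By class, fibrillar chains made up 24.5% ± 1.94 of the sum in BCSC against 49.3% ± 2.99 in non-BCSC, type IV 22.9% ± 1.496 and 14.5% ± 1.33, type VI 18.7% ± 3.73 and 6.77% ± 1.46, and FACITs 31.1% ± 2.61 and 26.3% ± 1.60. Fibrillar chains were thus the largest class in each non-BCSC library and FACITs the largest in each BCSC library. These shares are of counts, so long genes weigh more, and no test was made on a sum over members.

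**Figure D4:**
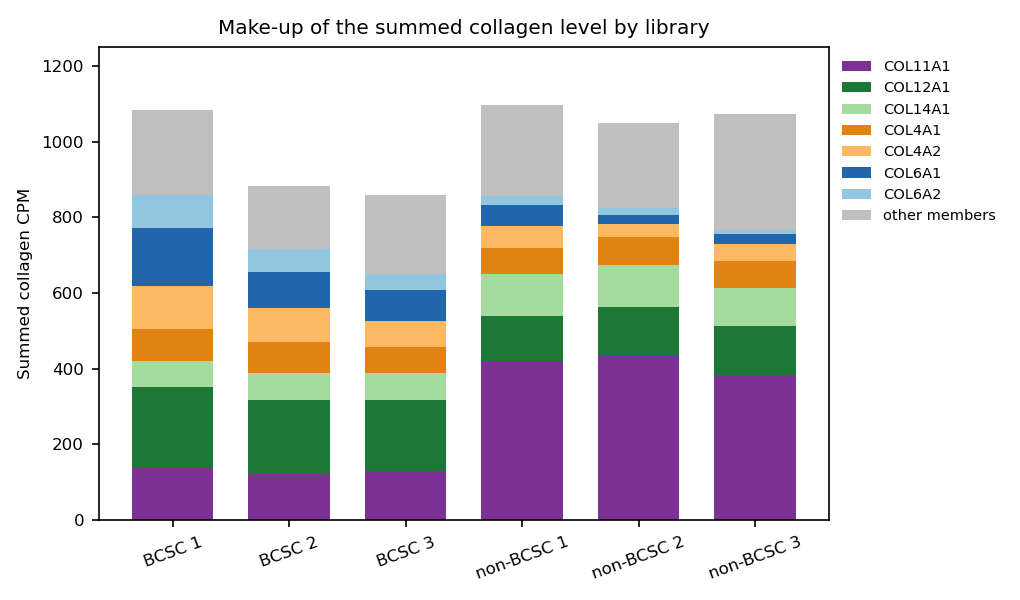
Summed collagen CPM in each library, stacked by the 7 members with the highest mean counts and all others together. The COL11A1 block shrinks from 35.8% to 41.5% of the column in non-BCSC to 12.7% to 15.0% in BCSC, while the blocks of COL12A1, COL6A1 and COL6A2 are larger in BCSC.

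The gene sums stood on transcripts that differed between libraries of 1 group. Of 412 collagen transcripts on file, 208 had counts and 70 were tested in a fit over all 46176 transcripts. In edgeR 0 were called, where 0.593% of all transcripts were called higher and 0.191% lower, although 16 of the 70 had an unadjusted p under 0.05, and DESeq2 called 3 higher and 4 lower. Of the COL11A1 counts, the shorter transcript COL11A1-212 (3151 nt) carried 294, 0 and 411 in BCSC against 1753, 1726 and 1251 in non-BCSC. The full-length transcript COL11A1-202 carried 1527 and 1630 in BCSC 2 and 3 and 3304, 3100 and 2694 in non-BCSC, but 2 in BCSC 1. In BCSC 1 another full-length transcript, COL11A1-203, carried 2380 counts, and it had 0 in the other libraries. COL12A1 split in the same manner, since COL12A1-201 had 3941 counts in BCSC 1, 1207 and 961 in non-BCSC 1 and 2, and 0 in the other libraries, where COL12A1-207 led with 2333, 2395 and 1011. Within each group the gene sums were close despite these shifts, so the sums were used for all comparisons.

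**Figure D5:**
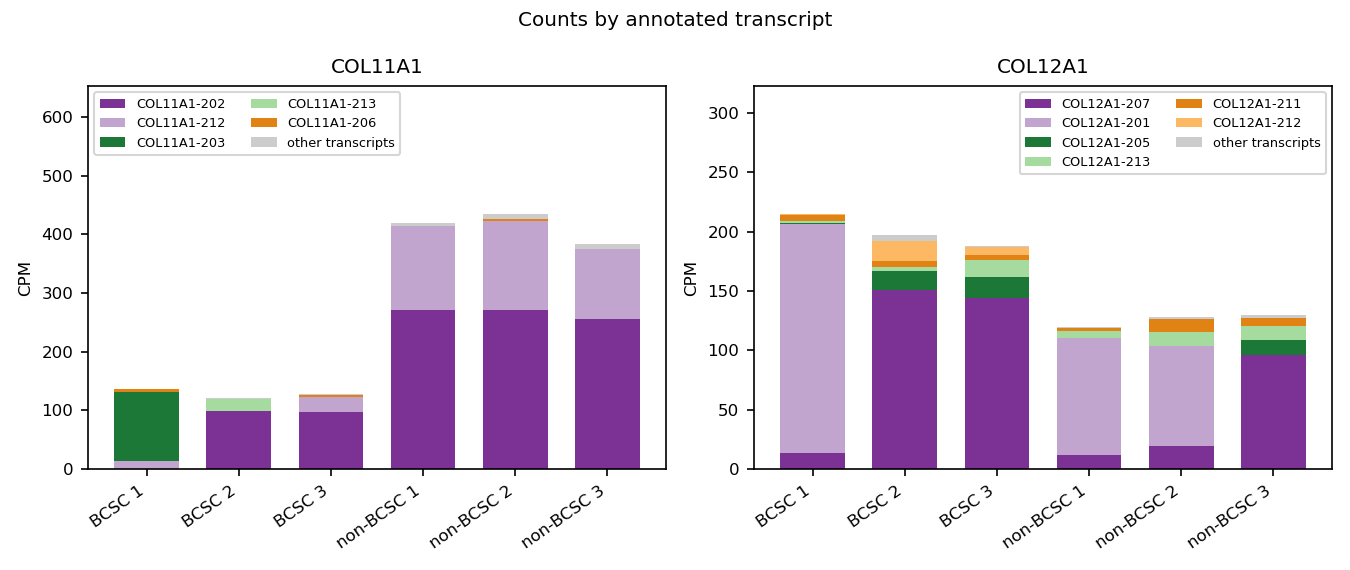
CPM of COL11A1 (left) and COL12A1 (right) in each library, stacked by annotated transcript. The bars of 1 group have like heights, but the leading transcript differs, with COL11A1-203 leading in BCSC 1 alone and COL12A1-201 leading in BCSC 1, non-BCSC 1 and non-BCSC 2.

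Collagen chains are hydroxylated, glycosylated, folded, exported, trimmed and crosslinked by a set of enzymes and chaperones. All 37 genes of that list were tested, with 6 called higher, 4 called lower and a median log2 fold change of 0.05, beside −0.05 over all genes. Over all genes tested, 8.85% were called higher and 11.3% lower. Among those with a mean of at least 50 counts, the shares were 13.7% and 6.45%. PLOD3, a lysyl hydroxylase that also adds sugar, had 58.7, 42.8 and 29.8 CPM in BCSC against 18.3, 10.96 and 7.995 CPM in non-BCSC. It rose without overlap by a log2 fold change of 1.81 ± 0.35 (SE, adjusted p = 0.00588 in edgeR), and 0.91 after GC correction. COLGALT1, which adds galactose to hydroxylysine, had 140, 114 and 107 CPM in BCSC against 67.7, 48.1 and 46.2 CPM in non-BCSC, and rose by 1.15 ± 0.18 on the log2 scale (SE, adjusted p = 0.00235 in edgeR), a call that was lost after GC correction (0.24, adjusted p = 0.221 in edgeR). BMP1, which cuts the C-propeptide of fibrillar procollagens, had 246, 158 and 99 counts in BCSC against 4, 3 and 17 in non-BCSC. That rise of BMP1, 3.68 ± 0.74 on the log2 scale (SE, adjusted p = 0.00733 in edgeR), was the only one of the 6 still called after GC correction (2.51). The collagen chaperone SERPINH1 (1.29), the prolyl isomerase FKBP10 (1.34) and the crosslinking oxidase LOXL2 (1.15) were also called higher, SERPINH1 with overlapping groups, and each lost the call after GC correction and without BCSC 1 or non-BCSC 3. SERPINH1 also lost it without BCSC 2 or non-BCSC 1, and FKBP10 and LOXL2 without non-BCSC 2. With the olfactory background subtracted, SERPINH1 (adjusted p = 0.0559 in edgeR) and LOXL2 (0.94, adjusted p = 0.0516 in edgeR) were not called, nor was COLGALT1 (0.97), which fell short of the fold required.

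Among the genes called lower, LOX, the lysyl oxidase that crosslinks fibrillar collagen, had the highest level. Its CPM were 160, 237 and 203 in BCSC against 632, 776 and 530 in non-BCSC. LOX fell without overlap by 1.69 on the log2 scale (log2 fold change −1.69 ± 0.17 SE, adjusted p = 0.000391 in edgeR), and was still called after GC correction (−1.07). P3H2, a prolyl 3-hydroxylase of type IV collagen, had 17.6, 18.9 and 12.7 CPM in BCSC against 50.3, 40.0 and 43.1 CPM in non-BCSC, a log2 fold change of −1.44 ± 0.22 (SE, adjusted p = 0.00211 in edgeR) and −0.91 after GC correction. TLL1, a relative of BMP1, and P4HA3, a prolyl 4-hydroxylase subunit, fell from low counts, with log2 fold changes of −4.56 and −3.19 (adjusted p = 0.00595 in edgeR and 0.0322), and both were still called after GC correction (−4.33 and −3.28). TLL1 had 16, 0 and 12 counts in BCSC against 80, 174 and 157 in non-BCSC, while P4HA3 had 6, 4 and 3 against 18, 33 and 27 at 1.60 and 1.51 times the olfactory level, and the P4HA3 call was lost without any 1 library apart from non-BCSC 1.

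For each step, the gene with the highest mean CPM, not scaled for length, is given where it was not named above. PLOD2, which hydroxylates lysines of the collagen ends, had 420, 467 and 497 CPM in BCSC against 694, 755 and 754 CPM in non-BCSC, a log2 fold change of −0.67 ± 0.10 (SE, adjusted p = 0.00184 in edgeR), and 0.50 after GC correction. PLOD2 has a GC content of 36.7%, and the part of base composition or transcript length in this change of sign was not tested. SEC23A, of the coat that carries procollagen out of the endoplasmic reticulum, had −0.53 ± 0.10 (SE, log2 fold change, adjusted p = 0.00606 in edgeR) and 0.14 after correction. ADAMTS3, which removes the N-propeptide, had 17.8 ± 1.14 CPM in BCSC against 17.8 ± 6.32 CPM in non-BCSC (SD, n = 3).

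Of 10 genes for collagen receptors, 9 were tested, 1 was called higher, 1 lower, and the median log2 fold change was −0.08. The background over all genes tested was 8.85% called higher and 11.3% lower. DDR1, a discoidin domain receptor kinase that binds fibrillar and type IV collagen, had 51.2, 31.6 and 30.1 CPM in BCSC against 9.91, 13.5 and 13.2 CPM in non-BCSC. DDR1 rose without overlap by a log2 fold change of 1.62 ± 0.27 (SE, adjusted p = 0.00318 in edgeR), and 0.28 after GC correction (adjusted p = 0.455 in edgeR). ITGA11, the fibroblast integrin for type I collagen, fell from 26, 92 and 166 counts in non-BCSC to 9, 0 and 22 in BCSC (log2 fold change −3.86 ± 1.12 SE, adjusted p = 0.0287 in edgeR), at 1.74 and 2.51 times the olfactory level in BCSC and non-BCSC. The call for ITGA11 held after GC correction (−4.15) and was lost without BCSC 1, BCSC 2, non-BCSC 2 or non-BCSC 3. ITGB1, the shared beta subunit of the collagen integrins, had the highest level, with 377, 456 and 483 CPM in BCSC against 741, 736 and 653 CPM in non-BCSC, lower in every BCSC library but short of the fold required (log2 fold change −0.70 ± 0.11 SE, adjusted p = 0.00298 in edgeR). After GC correction the ITGB1 value was −0.12 (adjusted p = 0.611 in edgeR). ITGA2, an integrin alpha subunit, had 323, 288 and 329 CPM in BCSC against 176, 141 and 157 CPM in non-BCSC, without overlap. Its log2 fold change of 0.99 ± 0.11 (SE, adjusted p = 0.000675 in edgeR) was short of the fold required, and 1.44 after GC correction (adjusted p = 0.000713 in edgeR). Under that correction, 1 receptor gene was called higher (ITGA2) and 2 lower (ITGA11 and LAIR1).

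Of 6 partners of type IV collagen in the basement membrane, 5 were tested, 1 was called higher, and 0 were lower in edgeR, in DESeq2 or at an unadjusted p under 0.05 in edgeR. In edgeR, 8.85% of all genes tested were called higher and 11.3% lower. The median log2 fold change of the tested partners was 0.97, and −0.27 after GC correction. AGRN, the heparan sulfate proteoglycan agrin, had 95.0, 45.8 and 45.4 CPM in BCSC against 25.2, 17.3 and 26.7 CPM in non-BCSC. The groups did not overlap, with a log2 fold change of 1.43 ± 0.31 (SE, adjusted p = 0.00969 in edgeR) and 0.15 after GC correction, and the value without BCSC 1 was 0.99. SPARC, a collagen-binding matricellular protein with the highest level of the list, had 840, 780 and 652 CPM in BCSC against 1100, 919 and 708 CPM in non-BCSC, which overlapped (log2 fold change −0.26 ± 0.16 SE, adjusted p = 0.231 in edgeR).

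Some markers of other cells were lower in BCSC, as were the sparse members that fell, while ACTA2 was not. The summed level of 6 fibroblast markers was 52.9 to 63.8 CPM in BCSC against 76.2 to 117 CPM in non-BCSC, mostly from PDGFRA at 48.4 to 53.5 and 59.8 to 79.2 CPM. Of the 6, DCN and LUM, matrix proteoglycans that define fibroblasts, fell, while PDGFRA, PDGFRB, FAP and ACTA2 were not called in edgeR. PDGFRB and ACTA2 had overlapping groups and log2 fold changes of −0.61 and 0.78. DESeq2 also called FAP lower (log2 fold change −3.13, adjusted p = 0.0139), with all BCSC libraries lower. DCN had 0.733, 0.518 and 3.54 CPM in BCSC against 10.9, 8.15 and 19.7 CPM in non-BCSC, and LUM had 0 CPM in BCSC 1 and 3. Counts per kb of LUM were 0.380 times the olfactory level in BCSC and 1.58 times in non-BCSC, and those of DCN 12.0 and 9.97 times. These ratios use the mean transcript length, and the canonical transcript of DCN, with 6850 nt, would lower those of DCN. The luminal markers EPCAM, CDH1, ESR1 and PGR, low in this line, summed to 8.26 to 9.48 CPM in BCSC against 22.0 to 45.9 CPM in non-BCSC, the same order as the olfactory genes. Their part in the results for the sparse collagen genes was not tested, beyond the fit with the olfactory background subtracted, in which 24 members were tested, 4 rose and 2 fell (COL11A1 and COL28A1). Of the genes behind the sort, ALDH1A3 had 25.4, 30.2 and 33.2 CPM in BCSC against 23.3, 16.8 and 12.0 CPM in non-BCSC. ALDH1A3 was not called (log2 fold change 0.77, adjusted p = 0.0577 in edgeR, and 0.13 after GC correction). ALDH1A1 had 0, 5 and 6 counts against 38, 28 and 32, the reverse of the sort by enzyme activity, at 2.33 and 3.27 times the olfactory level. Its call as lower (adjusted p = 0.0446 in edgeR) was lost after GC correction, with the background subtracted and without any 1 library.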

How the data were processed

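Long non-coding RNA sequencing libraries of PTX-resistant MDA-MB-231 cells, 3 labelled BCSC and 3 non-BCSC, were compared. Per the labels, total RNA was primed with random oligonucleotides and the dUTP-marked second strand was removed, which keeps strand. The values the authors deposited are counts per transcript in whole numbers, not normalized. The study's methods give HISAT2 and hg19, while the submitters' processing notes name hg38, HISAT2, featureCounts and DESeq2 with no role or order. How reads were assigned to transcripts, and whether by strand, is not given in the sources used here.

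Of 252618 transcripts on file, 249787 matched GENCODE on GRCh37 by identifier and were summed per gene. The 2827 unmatched identifiers and 4 assembler-made names, with 0.229% to 0.341% of a library's counts, were left out. Gene sums were tested with edgeR 4.0.16 under R 4.3.3, using TMM library sizes, its expression filter, a robust quasi-likelihood fit on group, and Benjamini-Hochberg adjustment over all genes tested. Calls needed an adjusted p under 0.05 and a fold change above 2, the criterion in the study's RNA-seq methods. For lncRNAs of BCSC against non-BCSC the study gives a fold change above 2 and P under 0.05, with no adjustment named. Its methods describe that profiling as a microarray, while its results name sequencing. The scripts were tested on simulated data. Values are means ± SD with n = 3, and log2 fold changes set BCSC over non-BCSC and carry their SE.

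Alternatives were DESeq2 1.42.0, RLE size factors, other filters, thinning to the smallest library, a replicate block, leaving out each library, subtraction of the olfactory receptor background per kb, and a robust loess correction for GC content and transcript length (span 0.3) passed as offsets. The correction was first run with a plain loess, which left a rank correlation with GC of −0.17 over all genes, and was replaced by the robust one after that value was seen. The collagen genes and the lists were chosen with earlier results of these data known, so no p is adjusted over a list. Every called member, and any whose mean reached 50 counts, is described one by one, and from the other lists every called gene and the one with the highest mean CPM for each role. ITGA2 is given as well, as the receptor gene called higher after GC correction. The deviations of same-numbered libraries correlated at 0.179, 0.014 and 0.216, and those of differently numbered libraries at −0.199 to 0.054. These values do not settle whether the numbers are pairs, and the main fit did not take them as such. Levels are compared between genes per kb of the canonical transcript, and an order by counts or CPM, which favours long genes, is named as such. The ratios to the olfactory level instead use the mean length of a gene's transcripts on file.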

Additional observations from a re-analysis of the deposited data

How the results depend on the processing

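With 3 libraries a group, the calls of COL6A6, COL9A1, COL19A1, COL25A1 and COL28A1 were lost without at least 1 library. That of COL6A5 was not, but COL6A5 lay under the olfactory level in both groups (0.524 and 0.83 times) and was filtered out with the background subtracted. The fall of COL11A1 kept its side of the threshold under all but 1 alternative. Collagen genes called higher numbered 0 after GC correction and 1 with the plain loess, an alternative added after seeing the data. Collagen genes called lower numbered 3 under a minimum of 10 counts per library and 2 with the background subtracted, and ran from 2 to 8 when 1 library was left out. Biosynthesis genes called higher numbered 1 after GC correction, 3 under a minimum of 10 counts per library and 3 with the background subtracted, and ran from 3 to 6 when 1 library was left out, and those called lower numbered 9 with no minimum fold. Receptor genes called higher numbered 2 with no filter and 2 with no minimum fold (1 to 2 without 1 library), and those called lower numbered 2 in DESeq2, after GC correction, with the plain loess and with no minimum fold, and 0 under a minimum of 10 counts per library or the background subtracted (0 to 1 without 1 library). Type IV partners called higher numbered 0 after GC correction, 3 with no filter and 2 with no minimum fold (0 to 2 without 1 library). Collagen transcripts called in DESeq2 numbered 3 higher and 4 lower. The log2 ratio of summed collagen CPM was −0.19 and turned to 0.30 without COL11A1. The cause of these shifts was not tested.

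Values that changed sign were mostly near 0 or under a GC correction. After GC correction the log2 fold change was −0.35 for COL5A1, 0.13 for COL21A1, −0.029 for SERPINH1, 0.50 for PLOD2 and 0.14 for SEC23A. With the plain loess, which moved the median of all genes to 0.28 from −0.05, it was −0.39 for COL5A1, 0.76 for COL21A1, 0.092 for COL8A1, 0.068 for COL14A1, −0.26 for SERPINH1, −0.12 for LOXL2, 1.21 for PLOD2, 0.76 for SEC23A, 0.52 for ITGB1 and −0.12 for AGRN, and the COL11A1 fold fell just short of the minimum (−0.99). COL4A1 was −0.018 under a minimum of 10 counts per library and −0.068 with the background subtracted, which moved the median of all genes to 0.089. COL4A3 was −0.027 in DESeq2, −0.0603 with RLE size factors, −0.13 under a minimum of 10 counts per library and −0.022 after thinning, and ADAMTS3 was −0.058, −0.094, −0.17 and −0.021, and −0.043 with the background subtracted. When 1 library was left out, COL4A3 ran from −0.17 to 0.33 and ADAMTS3 from −0.14 to 0.34. With the replicate number as a block, 4 collagen genes were called higher and 9 lower. Same-numbered libraries correlated at 0.179, 0.014 and 0.216 and differently numbered ones at −0.199 to 0.054. Whether the numbers are pairs is not settled by these values.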
